A study of Mus musculus with 15 samples.

Results

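The respiratory chain genes described here are the nuclear-encoded subunits of the mitochondrial electron transport chain and ATP synthase, with the assembly factors and tissue-restricted isoforms that share their symbols. They were taken from the deposited expression table as the rows whose symbol begins with Nduf, Cox4 to Cox8, Uqcr or Atp5, in that letter case, together with Sdha, Sdhb, Sdhc and Sdhd. This gave 96 members of 20610 rows: 37 subunits of complex I, 8 complex I assembly factors, 4 genes of complex II, 8 of complex III, 21 of complex IV and 18 of complex V. RNA-seq of polyA RNA gave 5 libraries each for neurons, astrocytes and microglia, 15 in all. The cells were isolated magnetically from cortex of male wild-type mice aged 28 postnatal days. The samples carried no other allele or treatment. The comparison asked how gene expression differs between the neural cell types. Which animal gave which library is not labelled, so p-values measure the spread between libraries, which may be technical. The unit is TPM, a relative abundance corrected for transcript length and set to the same total in every library, which keeps no read depth. In such bulk isolates, fewer cells of a type and less RNA per cell cannot be told apart.

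The respiratory chain is embedded in the inner mitochondrial membrane. Complex I takes electrons from NADH and complex II takes them from succinate, both pass them to ubiquinone, complex III hands them on to cytochrome c, and complex IV gives them to oxygen. Complexes I, III and IV pump protons, and complex V, the ATP synthase, lets the protons flow back through a rotating ring of c subunits to make ATP. The catalytic membrane subunits of complexes I, III, IV and V are partly encoded by mitochondrial DNA, while complex II is encoded wholly in the nucleus. Neurons rely heavily on oxidative phosphorylation, astrocytes are known for active glycolysis as well, and microglia can shift between both.

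Of the members, 94 reached at least 1 TPM in at least 5 libraries and were tested. Cox8c, a complex IV isoform known from testis, and the second of 2 rows with the symbol Atp5o did not pass this filter. All members are on nuclear chromosomes, 19 of which hold at least 1. No mitochondrially encoded gene was among the rows of the table. The members have short transcripts, with 70 of the 94 tested (74.5%) under 1000 nt in annotated length, against 18.7% of all tested genes. The median was 674 nt for members and 2112 nt for all tested genes. Each length is the median over the annotated transcripts of a gene, which need not be that of its main transcript. By this measure Ndufs1 has 651 nt and Atp5g1 2675.5 nt, so the lengths used below are approximate.

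The isolates were checked with marker lists. Astrocyte markers summed to 22304 to 25590 TPM and microglia markers to at least 72671 TPM in their own libraries, and reached at most 721 TPM in the libraries of the other cell types. The neuron libraries also had the highest neuronal marker sums, at 1061, 944, 1163, 1009 and 1732 TPM, but their endothelial marker sums were larger, at 30729, 32022, 35404, 37385 and 45247 TPM. Endothelial markers were 2390 to 3213 TPM in astrocyte libraries and 415 to 867 TPM in microglia libraries. The neuron values below are therefore values of an isolate rich in vascular transcripts, whose part in any result was not tested.

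In every cell type, libraries 1 and 2 stood apart from libraries 3 and 4 in the respiratory chain genes. Over all tested genes, not every same-numbered pair of libraries deviated together. The 96 members together made up 16.2, 17.4, 7.90, 7.95 and 11.6% of all TPM in neuron libraries 1 to 5, 9.24, 10.2, 6.54, 7.07 and 8.93% in astrocyte libraries, and 5.47, 5.75, 3.31, 2.64 and 3.803% in microglia libraries. In each cell type, libraries 1 and 2 held the largest shares and libraries 3 and 4 the smallest. Of the 94 tested members, 33 (35.1%) were higher in both libraries 1 and 2 than in both libraries 3 and 4 in every cell type, against 2.68% of all tested genes. These 33 comprised 11 of complex I, 10 of complex IV, 8 of complex V and 4 of complex III. Atp5a1, the alpha subunit of ATP synthase, and Ndufaf7, a methyltransferase of complex I assembly, were the only tested members lower in this way in all 3 cell types, 2.13% of the members against 23.1% of all tested genes.

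The split was widest in complex IV. Its summed level in libraries 1 and 2 was 4.39 times that in libraries 3 and 4 in neurons, 1.83 times in astrocytes and 3.03 times in microglia. Complex II gave ratios of 0.763 in neurons, 1.02 in astrocytes and 0.967 in microglia. Cox8a, a small membrane subunit of complex IV, was at 23329.6, 29086, 2743, 3024 and 11209 TPM in neuron libraries 1 to 5, 5628, 7320.4, 2603, 3324 and 6391 TPM in astrocyte libraries and 5273, 5014, 1296, 689 and 2374 TPM in microglia libraries. Its levels in neurons 1 and 2 stood far above every other library, and the ranges of the 3 cell types overlapped. Cox6a1, a regulatory subunit of complex IV, was at 19356, 24510.3, 2859, 3269.9 and 9769.6 TPM in neurons, 5050.0, 6803, 2139, 2569.6 and 5383 TPM in astrocytes and 4979.7, 4897, 1532, 967 and 2555 TPM in microglia. Libraries 1 and 2 were highest in neurons and microglia, and libraries 2 and 5 in astrocytes. Mature oligodendrocyte markers moved with the numbers in neurons, at 8483, 10381, 219.6, 243 and 1645 TPM, and in microglia, at 69877, 52150.0, 6781, 254 and 8195 TPM. They were 1139, 3829, 650.0, 466 and 1312 TPM in astrocytes. The part of these transcripts in the split was not tested.

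**Figure D1:**
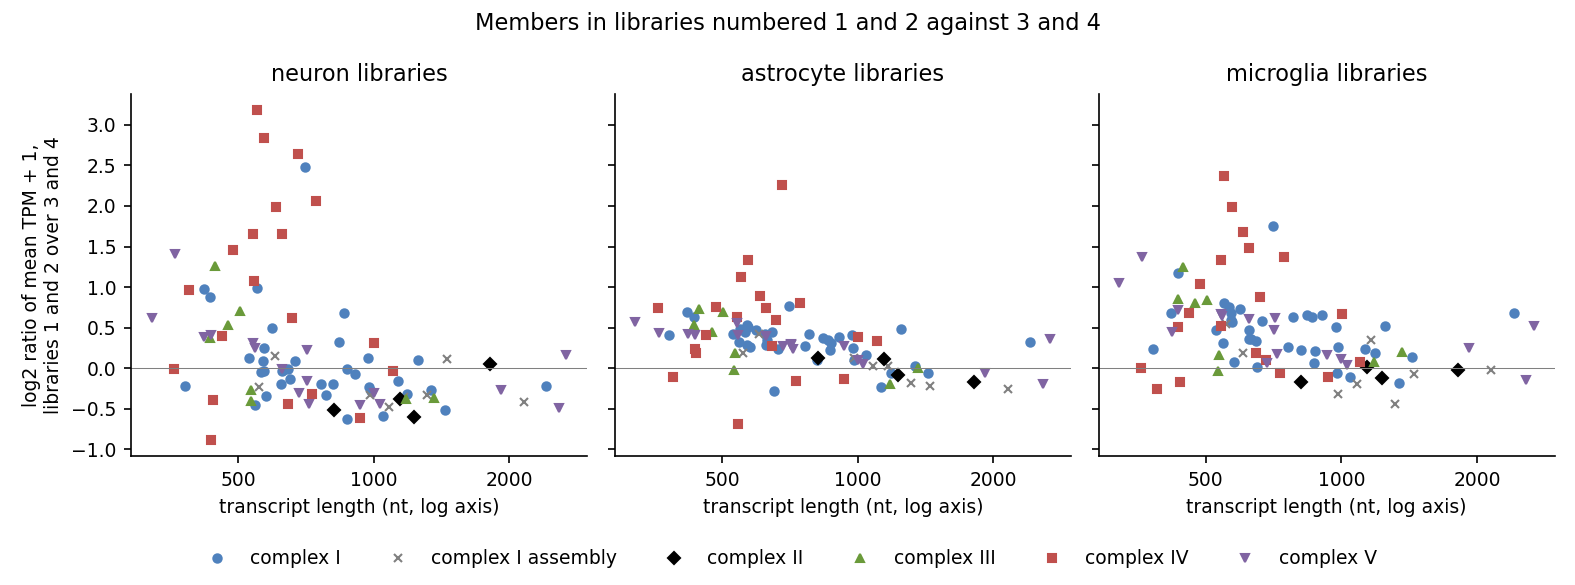
Mean level in libraries 1 and 2 over the mean in libraries 3 and 4, per tested member (points, log2 axis), against the median annotated transcript length in nt, for neurons, astrocytes and microglia. Points above 0 are higher in libraries 1 and 2; the highest points in neurons are short transcripts of complex IV such as Cox8a and Cox6a1.

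The shorter the member, the higher it tended to be in libraries 1 and 2, as the plot of these ratios against length shows. Across the 94 members Spearman's rho of length and the log2 ratio was -0.49 in neurons, -0.57 in astrocytes and -0.48 in microglia. These are descriptions across genes that share the same libraries, and genes are not independent replicates. Each cell type holds 1 library of each number.

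Most of the most abundant members were of complex IV. Over all 15 libraries the highest means were those of Cox8a at 7287 TPM, Cox6a1 at 6443, Cox6c at 3923, Uqcr11 at 3686, Cox4i1 at 3506 and Ndufb9 at 2480.1 TPM. Cox6c is a small accessory subunit of complex IV, Cox4i1 its main regulatory subunit, Uqcr11 a small subunit of complex III, and Ndufb9 an accessory subunit in the membrane arm of complex I. The order differed between libraries, and in neuron 3 Cox6a1 (2859 TPM) and Cox6c (2770.2 TPM) stood above Cox8a (2743 TPM). These 6 genes gave 48.3, 52.9, 19.3, 20.6 and 34.6% of the member sum in the neuron libraries. In astrocytes they gave 19.2% to 29.3%, and in microglia 17.3% to 36.9%.

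**Figure D2:**
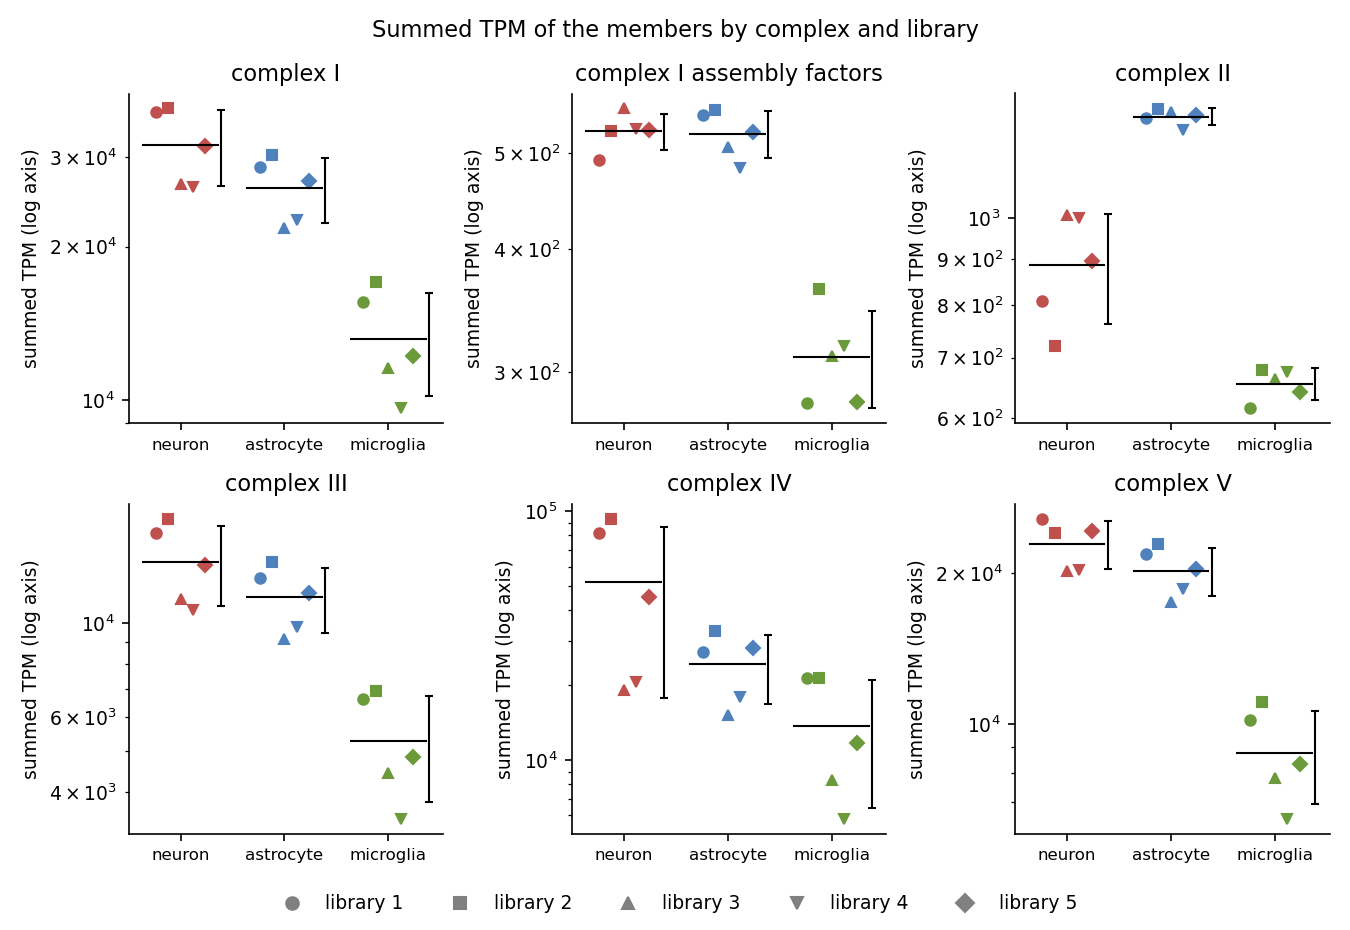
Summed TPM of each complex (log axis) in every library of neurons, astrocytes and microglia, with the mean and SD of 5 libraries. Microglia have the lowest mean in each panel, and complex II is the complex in which astrocytes lie above neurons in every library.

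Summed by complex, microglia had the lowest mean throughout. Complex I summed to 31717 ± 5348 TPM in neurons, 26052 ± 3754 TPM in astrocytes and 13202 ± 3026 TPM in microglia (mean ± SD, n = 5 each). Complex V summed to 22945 ± 2502 TPM in neurons, 20261 ± 2197 TPM in astrocytes and 8770.4 ± 1847 TPM in microglia. Complex III summed to 13924 ± 2979.8 TPM in neurons, 11478 ± 1991 TPM in astrocytes and 5264 ± 1479 TPM in microglia. For complex IV the sum was 51999 ± 34232 TPM in neurons, 24341 ± 7540.4 TPM in astrocytes and 13765 ± 7327 TPM in microglia, and its SD in neurons exceeded the difference from astrocytes. Complex II, the least abundant, departed from the order of the others, at 887 ± 123 TPM in neurons, 1294 ± 27.4 TPM in astrocytes and 655 ± 26.5 TPM in microglia.

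Few members differed by 2-fold or more between neurons and astrocytes. A call required an adjusted p in limma below 0.05 together with a log2 difference of at least 1, which is 2-fold on the log2(TPM + 1) scale. By this rule 5 of 94 members were lower in neurons than in astrocytes, against 12.7% of all tested genes: Cox8b, Cox7b2, Ndufaf4, Uqcrfs1 and Cox7a1. None was called higher, against 12.9% of all tested genes. Cox8b and Cox7b2 passed the expression filter only through the astrocyte libraries, so their calls in both comparisons with astrocytes carry that selection. At an unadjusted p below 0.05 with the same size, 1 member was higher (13% of all tested genes), namely Cox6c. On the adjusted p alone, whatever the size, 15 members were higher and 27 lower, against 26.2% and 28.5% of all tested genes. The median log2 difference of the members was 0.11, beside -0.03 for all tested genes, and it was -0.05 with quantile normalization.

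The count of members called higher in neurons depended on scaling and on single libraries. It was 2 with median-of-ratios scaling, Ndufa1 at 1.01 and Ndufa4l2 at 1.06, against 13.2% of all tested genes. It was 6 without neuron 3, 4 without neuron 4, 2 without neuron 1 or astrocyte 2, and 1 without neuron 2 or neuron 5, astrocyte 3, or microglia 1, 2 or 4. Of 13351 tested genes, 1639 to 1816 were called higher when 1 library was left out. The 5 members called lower were called in every alternative in which they were tested, and Cox7b2 was not tested with the filter of 5 TPM.

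**Figure D3:**
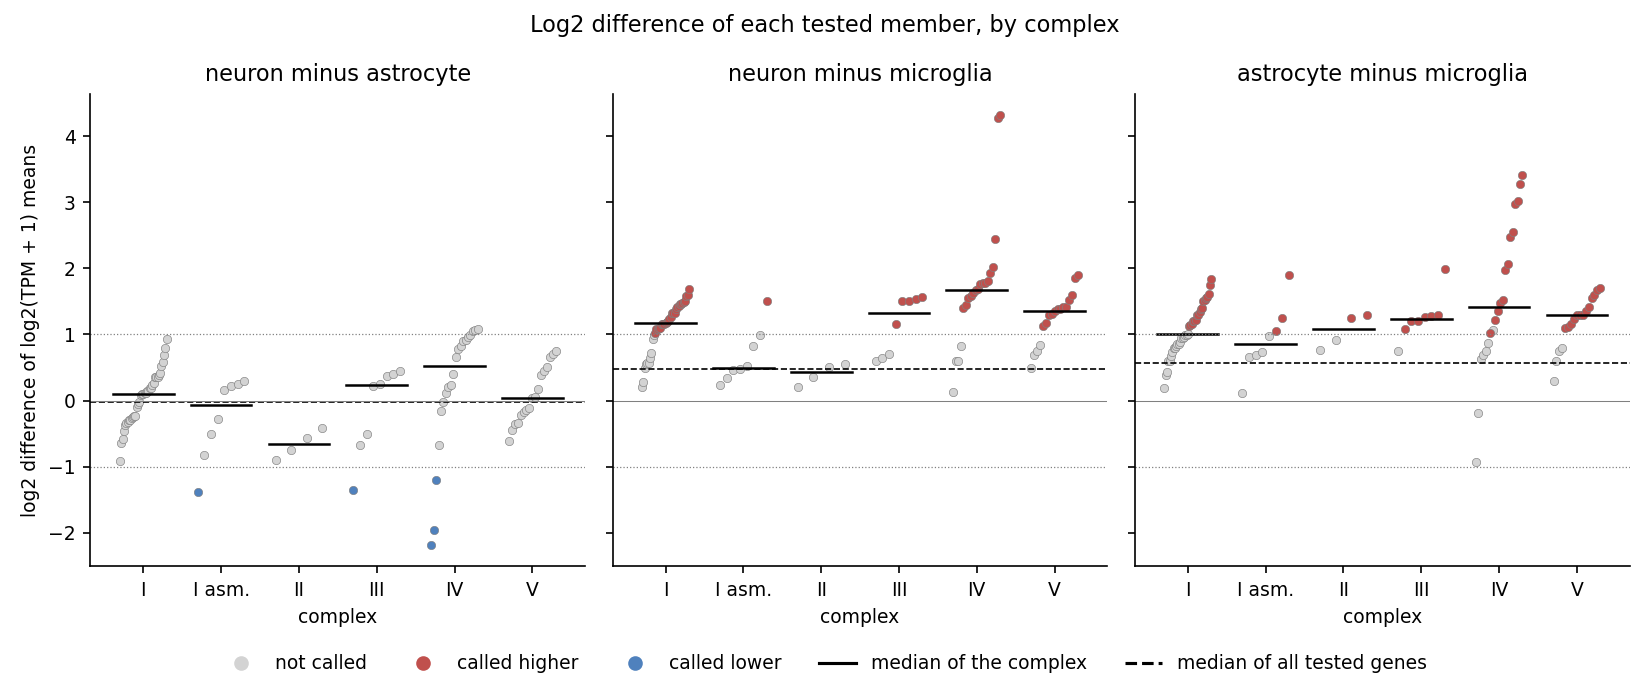
Log2 difference of each tested member (points), grouped by complex, for neuron minus astrocyte, neuron minus microglia and astrocyte minus microglia, with the median of each group marked. The complex II points lie below 0 in the comparison of neurons with astrocytes, and nearly all points lie above 0 in both comparisons with microglia.

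In TPM, microglia had the lowest mean levels of nearly all members. Of the 94 tested, 92 had their lowest mean in microglia. For 70 members (74.5%) every microglia library was below every neuron and astrocyte library, against 31.1% of all tested genes. Neurons had the highest mean for 54 members and astrocytes for 40. The 2 with their lowest mean in astrocytes were Cox6a2 and Cox7a2l. The typical tested gene was also lower in microglia, at median log2 differences of 0.48 for neurons and 0.57 for astrocytes. With median-of-ratios scaling, 75 of 94 members were above microglia in neurons and 81 of 94 in astrocytes. Microglia 1 and 2 also held many mature oligodendrocyte marker transcripts, 69877 and 52150.0 TPM beside 77185 and 72671 TPM of microglia markers.

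Compared with microglia, 62 of 94 members were called higher in neurons, against 29.5% of all tested genes. In astrocytes 56 were called higher than in microglia, against 32.3% of all tested genes. With limma no member was called lower in either comparison, nor at an unadjusted p below 0.05 with the same size. Of all tested genes 9.74% were called lower in neurons (9.77% at the unadjusted p) and 10.2% in astrocytes. Without microglia 1 and 2, 65 members were called higher in neurons and 70 in astrocytes, against 4139 and 4419 of 13351 tested genes. On the adjusted p alone 89 members were higher in neurons and 83 in astrocytes, against 52.5% and 55.9%. The median log2 difference of members was 1.25 for neurons and 1.18 for astrocytes. All tested genes had medians of 0.48 and 0.57 in these comparisons, so the members stood 0.77 and 0.61 above them. The comparisons share the microglia libraries, and each also shares one group with the comparison of neurons and astrocytes.

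The number called rested on how libraries were scaled. Median-of-ratios scaling, which sets the typical gene of each library equal, moved the median of all genes by -0.51 for neurons against microglia and by -0.54 for astrocytes against microglia. With it 11 members were called higher in neurons than in microglia and 13 in astrocytes, against 19.9% and 19.6% of all tested genes. On the adjusted p alone, 52 members were then higher in neurons than in microglia (33.6% of all tested genes) and 4 lower (34.3%). In astrocytes 46 were higher (35.3%) and 5 lower (34.1%).

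The members called under every alternative in which they were tested were the same as those called with median-of-ratios scaling. In neurons against microglia they were Cox4i2, Cox5a, Cox5b-ps, Cox6b2, Cox6c, Cox7a1, Cox7a2, Ndufa4, Ndufa4l2, Atp5k and Atp5md, of which 9 of 11 are grouped with complex IV here. In astrocytes against microglia they were Cox4i2, Cox5b-ps, Cox6b2, Cox7a1, Cox7b, Cox7b2, Cox8b, Ndufa4l2, Ndufa12, Ndufb6, Ndufaf4, Uqcrfs1 and Atp5g3. Every other call of a member against microglia named below ended with that scaling.

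Complex I has 7 nuclear-encoded core subunits, which carry its flavin and iron-sulfur clusters, and many accessory subunits around them. Between neurons and astrocytes the core and the accessory subunits had medians of opposite sign, -0.32 for the 7 core subunits and 0.14 for the 30 accessory ones. On the adjusted p alone 5 of 7 core subunits were lower in neurons, Ndufs1 and Ndufv1 among them. Of the 30 accessory subunits 4 were lower and 5 higher, against 28.5% of all tested genes lower and 26.2% higher. The core median was negative in all 30 settings tried, from -0.55 to -0.20. The difference between core and accessory subunits was not tested.

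Ndufs1 (chr1:63143596-63176833, mm10) encodes the largest subunit of complex I, which holds several of its iron-sulfur clusters. It was at 31.3, 33.7, 36.5, 35.05 and 29.7 TPM in neurons, 62.0, 52.2, 75.2, 63.6 and 66.4 TPM in astrocytes and 23.5, 24.1, 22.5, 24.6 and 21.9 TPM in microglia. Every neuron library lay below every astrocyte library (log2 difference -0.92, SE 0.12, adjusted p = 2.84e-06). The difference between neurons and microglia was 0.49 (adjusted p = 0.00104), beside a median of 0.48 for all tested genes, and it was -0.10 with median-of-ratios scaling (adjusted p = 0.345). Ndufv1, which binds NADH and the flavin, was at 114 ± 20.8 TPM in neurons and 146 ± 9.18 TPM in astrocytes (log2 difference -0.37, SE 0.13, adjusted p = 0.0194).

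Among accessory subunits Ndufa1 stood at the other end. This short membrane subunit was at 4059.7, 4031, 2135, 1986 and 2749.5 TPM in neurons, 1689.8, 1991, 1076, 1202 and 1707 TPM in astrocytes and 1455, 1406, 1004, 779 and 1185 TPM in microglia. Neuron 4 lay just below astrocyte 2, so the groups overlapped (log2 difference 0.94, SE 0.23, adjusted p = 0.00263), and the difference was under 2-fold. Against microglia 25 of 30 accessory subunits were called higher in neurons (29.5% of all tested genes) and 15 in astrocytes (32.3%). With median-of-ratios scaling 21 were higher in neurons (33.6% of all tested genes) and 12 in astrocytes (35.3%) on the adjusted p alone, and of these only Ndufa12 and Ndufb6 in astrocytes exceeded 2-fold.

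The largest complex I differences between neurons and microglia included Ndufb2, Ndufa5 and Ndufb6. Ndufb2, of the membrane arm, was at 688 ± 64.2 TPM in neurons and 234 ± 62.5 TPM in microglia (log2 difference 1.59, SE 0.16, adjusted p = 7.23e-08). Ndufa5, of the arm that binds ubiquinone, was at 1167 ± 203 TPM in neurons and 393 ± 118 TPM in microglia (log2 difference 1.60, SE 0.19, adjusted p = 6.09e-07). With median-of-ratios scaling Ndufb2 stood at 0.97 and Ndufa5 at 0.99. Between astrocytes and microglia, Ndufa12 and Ndufb6 were called under every alternative. Ndufa12, near the NADH-binding module, was at 1493, 1533, 1118, 1218 and 1341 TPM in astrocytes and 441, 506, 329, 269 and 365 TPM in microglia, with no overlap (log2 difference 1.83, SE 0.16, adjusted p = 8.20e-09). Ndufb6, of the membrane arm, was at 771, 735, 573, 658 and 717 TPM in astrocytes and 237, 269.7, 186, 149 and 194 TPM in microglia, again without overlap (log2 difference 1.76, SE 0.14, adjusted p = 4.03e-09).

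The 8 complex I assembly factors, which help to build the complex and are not part of it, were far less abundant, summing to 526 ± 22.3 TPM in neurons, 523 ± 28.9 TPM in astrocytes and 311 ± 35.1 TPM in microglia. Ndufaf4 (chr4:24898083-24905001, mm10), an early factor of the assembly line, was at 10.7, 10.7, 15.4, 13.9 and 10 TPM in neurons, 30.7, 28.4, 36.3, 34.9 and 34.4 TPM in astrocytes and 7.23, 8.71, 7.71, 8.56 and 8.14 TPM in microglia. Astrocyte libraries were all above the neuron and microglia libraries. It was lower in neurons than in astrocytes (log2 difference -1.38, SE 0.14, adjusted p = 1.96e-07) and higher in astrocytes than in microglia (log2 difference 1.90, SE 0.14, adjusted p = 1.02e-09).

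The other assembly factors were less divided. Ndufaf6 was at 20.9 ± 4.56 TPM in neurons, 37.0 ± 2.58 TPM in astrocytes and 17.7 ± 4.49 TPM in microglia. It was lower in neurons than in astrocytes at under 2-fold (log2 difference -0.82, SE 0.18, adjusted p = 7.66e-04). Its call for astrocytes over microglia (1.05, adjusted p = 3.81e-05) ended without microglia 1 or microglia 5, at 0.96 each. Ndufaf5, which hydroxylates a core subunit, was called higher than in microglia in both neurons (1.51, adjusted p = 5.24e-08) and astrocytes (1.25, adjusted p = 4.90e-07).

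In complex II all 4 subunits were lower in neurons than in astrocytes. Each passed the adjusted p, at a median log2 difference of -0.65, with no overlap between the neuron and astrocyte libraries for any of them, and each difference was under 2-fold. The share of all tested genes lower on the adjusted p alone was 28.5%, and 39% had no overlap in either direction. The median was negative in all 30 settings, from -0.71 to -0.53.

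Sdha (chr13:74322254-74350280, mm10), the flavoprotein that oxidises succinate, was at 124, 118, 115, 117 and 109.9 TPM in neurons, 189, 179, 214, 200.2 and 198 TPM in astrocytes and 74.9, 82.0, 78.0, 81.1 and 78.8 TPM in microglia. It was lower in neurons than in astrocytes (log2 difference -0.74, SE 0.09, adjusted p = 2.27e-06). Sdhc, one of the membrane anchors, showed the widest gap of the complex, at 92.0, 78.8, 129, 117 and 97.3 TPM in neurons, 191, 211, 192, 175 and 178 TPM in astrocytes and 73.6, 74.3, 84.5, 82.0 and 78.8 TPM in microglia (log2 difference -0.89, SE 0.13, adjusted p = 1.05e-05 for neuron minus astrocyte). Sdhb, the iron-sulfur subunit, differed by -0.41 (adjusted p = 0.00361) and Sdhd, the other anchor, by -0.56 (adjusted p = 0.00132).

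Against microglia all 4 complex II genes were higher in astrocytes on the adjusted p (55.9% of all tested genes). Of them Sdha (1.299, adjusted p = 5.94e-10) and Sdhc (1.26, adjusted p = 7.05e-08) were called. In neurons Sdha, Sdhb and Sdhc were higher than in microglia at under 2-fold (52.5% of all tested genes on the adjusted p alone). Sdhd did not pass (0.21, adjusted p = 0.155). The median log2 difference of the 4 genes between neurons and microglia was 0.44, beside 0.48 for all tested genes, and it was -0.18 with median-of-ratios scaling.

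In complex III the Rieske protein differed from the rest. Uqcrfs1 (chr13:30540308-30545362, mm10) encodes this iron-sulfur subunit, which passes electrons to cytochrome c1. It was at 149, 133, 196, 168 and 177 TPM in neurons, 421, 415, 423, 414 and 409 TPM in astrocytes and 109.9, 117, 104, 93.1 and 100.1 TPM in microglia. Astrocyte libraries lay above all others without overlap. Neurons were lower than astrocytes (log2 difference -1.35, SE 0.11, adjusted p = 1.64e-08), and astrocytes were higher than microglia (log2 difference 1.98, SE 0.11, adjusted p = 2.84e-11).

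The core proteins Uqcrc1 and Uqcrc2 were also lower in neurons than in astrocytes, at under 2-fold. Uqcrc1 was at 324 ± 47.6 TPM in neurons and 513 ± 33.7 TPM in astrocytes (log2 difference -0.67, SE 0.11, adjusted p = 6.16e-05), and Uqcrc2 at 142 ± 20.3 TPM in neurons and 200.4 ± 14.0 TPM in astrocytes (log2 difference -0.50, SE 0.11, adjusted p = 0.00120). The small subunits lay the other way or showed no difference past the threshold. Uqcrb was higher in neurons (0.40, adjusted p = 0.00491), whereas Uqcr11, Uqcr10, Uqcrh and Uqcrq did not pass, with adjusted p between 0.0877 and 0.371. Against microglia, 5 of 8 complex III genes were called higher in neurons (29.5% of all tested genes) and 7 of 8 in astrocytes (32.3%). Median-of-ratios scaling left 0 of these calls in neurons (19.9% of all tested genes) and 1 in astrocytes (19.6%). In astrocytes the calls of Uqcr11 and Uqcrq ended without microglia 4, at 0.98 and 0.96, and that of Uqcrq also without astrocyte 2, at 0.997.

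The 11 ubiquitous subunits of complex IV, which include Ndufa4, a protein first assigned to complex I, had a median log2 difference of 0.66 between neurons and astrocytes. On the adjusted p alone Cox6b1 was higher in neurons and Cox7b lower. The other 9 did not pass. Cox6c, for example, was at 11509, 11579, 2770.2, 3051 and 6203 TPM in neurons and 3229, 4174, 1897, 2100.4 and 3428 TPM in astrocytes, and the groups overlapped (log2 difference 1.05, SE 0.44, adjusted p = 0.0520). Cox4i1 was at 9609.8, 10478, 2283, 2512 and 4980.2 TPM in neurons and 2942, 3613, 1829, 1919 and 3186 TPM in astrocytes (log2 difference 0.92, SE 0.41, adjusted p = 0.0693). These results depended on the fit. With a term for library number in limma, Cox6a1 (adjusted p = 0.00179) and Cox6c (adjusted p = 5.24e-04) were called higher in neurons. The labels state no pairing, and not every same-numbered pair of neuron and astrocyte libraries deviated together.

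Cox7b ran against the other ubiquitous subunits. It was at 399, 360.0, 308, 301 and 381 TPM in neurons, 671, 607, 417, 558 and 550.2 TPM in astrocytes and 157, 188, 112, 103 and 114 TPM in microglia, with neurons below astrocytes in every library (log2 difference -0.67, SE 0.17, adjusted p = 0.00255) and astrocytes above microglia (log2 difference 2.07, SE 0.17, adjusted p = 4.10e-09). Against microglia all 11 ubiquitous subunits were called higher in neurons (29.5% of all tested genes), and 6 in astrocytes (32.3%). With median-of-ratios scaling 4 were called in neurons, namely Cox5a, Cox6c, Cox7a2 and Ndufa4, and Cox7b alone in astrocytes. Of all tested genes 19.9% and 19.6% were called higher with that scaling. Ndufa4 was at 1914, 1783, 1429.8, 1381 and 1854 TPM in neurons and 600.2, 671, 436, 355 and 448 TPM in microglia (log2 difference 1.76, SE 0.17, adjusted p = 5.12e-08).

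Complex IV also has paralogues with restricted expression, which can take the place of a ubiquitous subunit. To compare them independently of scaling, each was expressed as a percentage of the summed TPM of its pair and tested with an exact two-sided permutation test over the 5 libraries of each group. The smallest p this design allows is 0.00794, and p-values were adjusted over 30 tests. Paralogues and pseudogenes of these short genes may share reads, so low shares are uncertain.

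**Figure D4:**
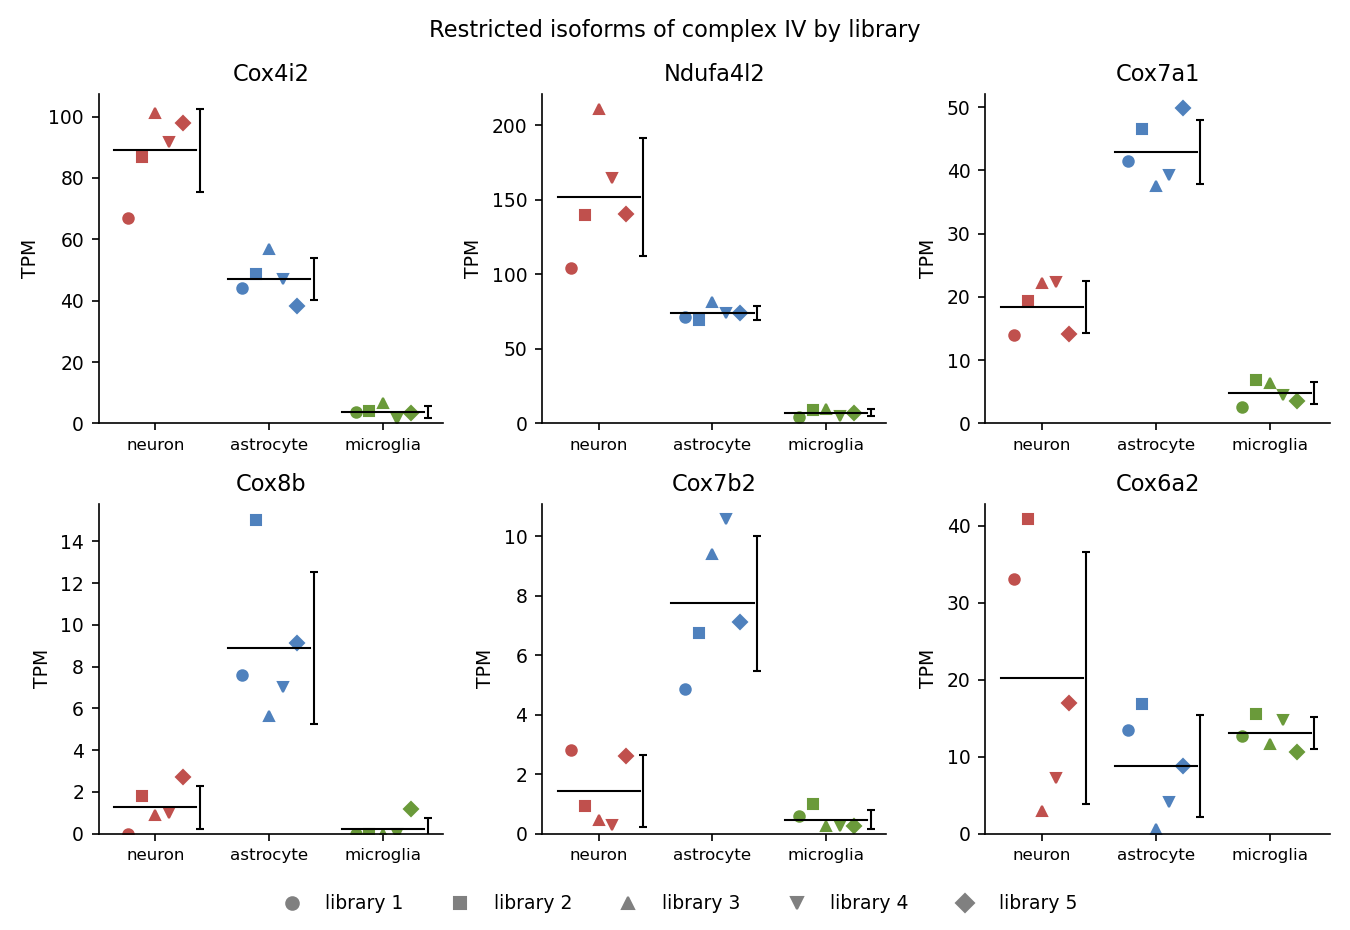
TPM of the restricted complex IV isoforms in each library of neurons, astrocytes and microglia (points), with the mean and SD of 5 libraries. Cox4i2 and Ndufa4l2 are lowest in microglia, and Cox7a1, Cox7b2 and Cox8b are highest in astrocytes.

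Cox4i2 and Ndufa4l2 were both lowest in microglia. Cox4i2 (chr2:152754173-152765037, mm10) encodes a form of subunit 4 known from lung and low oxygen. It was at 66.9, 87.0, 101.3, 91.8 and 97.9 TPM in neurons, 44.1, 48.6, 56.9, 47.1 and 38.2 TPM in astrocytes and 3.73, 3.92, 6.78, 1.28 and 3.26 TPM in microglia, and microglia lay below all other libraries. It was higher in neurons (log2 difference 4.32, SE 0.23, adjusted p = 2.37e-11) and in astrocytes (log2 difference 3.42, SE 0.23, adjusted p = 4.29e-10) than in microglia, and higher in neurons than in astrocytes at under 2-fold (0.90, adjusted p = 0.00341). As a share of Cox4i1 plus Cox4i2 it made up 0.691, 0.823, 4.25, 3.52 and 1.93% in neurons, 1.48, 1.33, 3.02, 2.39 and 1.19% in astrocytes and 0.138, 0.140, 0.548, 0.143 and 0.200% in microglia. The share was higher in neurons and in astrocytes than in microglia (adjusted p = 0.0125 each, exact permutation test), while neurons and astrocytes overlapped (adjusted p = 0.706). The call for neurons ended without microglia 1, 2 or 4 (adjusted p = 0.0595). The difference was then 1.99 percentage points each time, beside 2.01 with all libraries, and the groups still did not overlap. With groups of unequal size this test can lose a call although the groups stay apart. This loss therefore does not show that the share depends on those libraries.

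Ndufa4l2 (chr10:127514967-127517154, mm10), the paralogue of Ndufa4 induced by low oxygen, was at 104, 139.8, 211, 165 and 140.3 TPM in neurons, 71.6, 69.3, 81.4, 74.0 and 73.9 TPM in astrocytes and 4.54, 8.72, 9.80, 4.73 and 7.22 TPM in microglia. All 5 neuron libraries were above the astrocyte libraries (log2 difference 0.99, SE 0.20, adjusted p = 3.83e-04), and both were above microglia (4.27 for neurons, adjusted p = 2.71e-12, and 3.28 for astrocytes, adjusted p = 7.15e-11). Its share of Ndufa4 plus Ndufa4l2 was 8.59 ± 3.10% in neurons, 5.64 ± 1.203% in astrocytes and 1.43 ± 0.527% in microglia (mean ± SD, n = 5 each). The share was higher than in microglia for both (adjusted p = 0.0125 each, exact permutation test). Neurons and astrocytes overlapped (adjusted p = 0.136), a difference that passed without neuron 1 (adjusted p = 0.0476).

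The summed markers of mural cells, the pericytes and smooth muscle cells of vessels, were, like both genes, highest in neurons and lowest in microglia. Single markers differed. Pdgfrb (12.6 TPM in neurons, 18.8 TPM in astrocytes) and Abcc9 (4.20 and 4.88 TPM) had higher means in astrocytes. The others had higher means in neurons, from Vtn (1568 and 1553 TPM), which was nearly equal, to Acta2 (1303 and 99.6 TPM). The 11 mural markers, all detected in every library, summed to 4525, 5031, 9198, 7999 and 6625 TPM in neurons, 2389.8, 2389, 3130.4, 3064 and 2753 TPM in astrocytes and 184, 294, 407, 161 and 299 TPM in microglia. Within neurons, libraries 3 and 4 had the highest mural sums and the highest Ndufa4l2 levels, and Cox4i2 was highest in libraries 3 and 5. The part of mural cells in these differences was not tested.

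Cox7a1, Cox7b2 and Cox8b were the restricted isoforms for which every astrocyte library lay above every neuron and microglia library. Cox7a1 (chr7:30184144-30186078, mm10), known from heart and skeletal muscle, was at 14.1, 19.4, 22.2, 22.4 and 14.2 TPM in neurons, 41.5, 46.5, 37.6, 39.3 and 49.8 TPM in astrocytes and 2.59, 6.81, 6.32, 4.56 and 3.61 TPM in microglia. Astrocytes lay above both other groups in every library (log2 difference -1.198, SE 0.21, adjusted p = 8.83e-05 for neuron minus astrocyte, and log2 difference 2.98, SE 0.21, adjusted p = 4.60e-10 for astrocyte minus microglia). Its share of Cox7a1 plus Cox7a2 was 0.985, 1.361, 2.44, 2.31 and 1.11% in neurons, 3.29, 3.705, 4.86, 4.33 and 4.33% in astrocytes and 0.558, 1.28, 2.05, 1.92 and 0.988% in microglia. The astrocyte share was above that of neurons and of microglia (adjusted p = 0.0125 each, exact permutation test), and neurons and microglia overlapped.

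Cox8b (chr7:140898945-140900446, mm10), another isoform known from muscle, was at 0, 1.81, 0.870, 0.970 and 2.71 TPM in neurons, 7.59, 15.03, 5.65, 7.03 and 9.12 TPM in astrocytes and 0, 0, 0, 0 and 1.16 TPM in microglia. It was listed at 0 in neuron 1 and in 4 microglia libraries, and its log2 difference of -2.18 between neurons and astrocytes (adjusted p = 1.63e-05) was -3.25 with a pseudocount of 0.1. Cox7b2 (chr5:71442824-71548205, mm10) was at 2.81, 0.940, 0.460, 0.280 and 2.63 TPM in neurons, 4.87, 6.76, 9.42, 10.6 and 7.11 TPM in astrocytes and 0.610, 1, 0.250, 0.270 and 0.250 TPM in microglia (log2 difference -1.96, SE 0.29, adjusted p = 1.73e-05 for neuron minus astrocyte). Both stood above the neuron and microglia libraries in every astrocyte library. Without the astrocyte libraries neither would have passed the expression filter. Their shares of Cox8a plus Cox8b and of Cox7b plus Cox7b2 were 0.182 ± 0.0399% and 1.43 ± 0.597% in astrocytes, each above neurons and microglia (adjusted p = 0.0125, exact permutation test).

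Cox6a2, known from heart and muscle, and Cox6b2, known from testis, were rare. Cox6a2 was at 20.2 ± 16.4 TPM in neurons, 8.77 ± 6.61 TPM in astrocytes and 13.04 ± 2.10 TPM in microglia, and passed in no comparison of levels (adjusted p = 0.156 for neurons and astrocytes). Its share of Cox6a1 plus Cox6a2 was 0.171, 0.166, 0.103, 0.222 and 0.173% in neurons, 0.265, 0.247, 0.0285, 0.161 and 0.163% in astrocytes and 0.255, 0.317, 0.751, 1.504 and 0.412% in microglia. The share was lower in neurons than in microglia (adjusted p = 0.0125, exact permutation test). This call ended when any single neuron library was left out (adjusted p = 0.0794 to 0.0952). The difference was then -0.494 to -0.465 percentage points, beside -0.481 with all libraries, and the groups still did not overlap. The share was lower in astrocytes than in microglia too (adjusted p = 0.0238, exact permutation test). That call ended without any single astrocyte library (adjusted p = 0.0952 to 0.125), at -0.498 to -0.439 points beside -0.475. With groups of unequal size this test can lose a call although the difference holds. These losses therefore do not show that the shares depend on single libraries. Cox6b2 was at 35.4 ± 12.8 TPM in neurons, 38.5 ± 7.98 TPM in astrocytes and 9.24 ± 2.90 TPM in microglia, higher than in microglia in neurons (1.81, adjusted p = 2.99e-06) and in astrocytes (1.97, adjusted p = 9.39e-07). Its share of Cox6b1 plus Cox6b2 was 1.49 ± 1.18% in neurons, 2.34 ± 0.795% in astrocytes and 0.923 ± 0.230% in microglia. Only astrocytes against microglia passed (adjusted p = 0.0125, exact permutation test).

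Cox7a2l, which helps complexes III and IV associate, and the pseudogene row Cox5b-ps complete the complex IV names. Cox7a2l was higher in neurons than in astrocytes, at 196 ± 8.05 TPM in neurons and 114 ± 14.9 TPM in astrocytes (log2 difference 0.79, SE 0.11, adjusted p = 1.07e-05), and was 129 ± 12.9 TPM in microglia. Cox5b-ps may share reads with Cox5b and is reported as uncertain, at 7.59 ± 4.65 TPM in neurons, 7.18 ± 2.03 TPM in astrocytes and 0.498 ± 0.462 TPM in microglia.

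Complex V showed no general tilt between neurons and astrocytes. Its median log2 difference was 0.03. On the adjusted p alone 4 of 17 members were higher in neurons and 4 lower, near the 26.2% and 28.5% of all tested genes. Atp5e, Atp5g1, Atp5g2 and Atp5l were the higher ones, and Atp5pb, Atp5a1, Atp5g3 and Atp5c1 the lower. Atp5b, the catalytic beta subunit, was at 1463, 1199.9, 1595, 1619 and 1748 TPM in neurons, 1719, 1675, 1737, 1800.1 and 1859 TPM in astrocytes and 587, 660.1, 531, 520.2 and 599.5 TPM in microglia. Neurons and astrocytes did not pass (log2 difference -0.22, SE 0.11, adjusted p = 0.121), while both stood above microglia (1.39, adjusted p = 6.95e-09 for neurons and 1.60, adjusted p = 7.46e-10 for astrocytes).

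Against microglia 13 of 17 complex V members were called higher in neurons (29.5% of all tested genes) and 13 in astrocytes (32.3%). Median-of-ratios scaling left 2 of these calls in neurons (19.9% of all tested genes) and 1 in astrocytes (19.6%). Atp5md and Atp5k, small membrane subunits, were called in neurons under every alternative. Atp5md was at 6067, 5601, 2125, 2288 and 4007 TPM in neurons and 1563, 1667, 767, 483 and 960.1 TPM in microglia (log2 difference 1.90, SE 0.33, adjusted p = 6.39e-05). Its call for astrocytes over microglia (1.15, adjusted p = 0.00482) ended without microglia 4, at 0.90. The call of Atp5mpl, another membrane subunit, for neurons over microglia (1.12, adjusted p = 1.42e-05) ended there too, at 0.98.

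The c ring of ATP synthase is encoded by Atp5g1, Atp5g2 and Atp5g3. Their precursors differ in the import sequence and give the same mature protein. Since the shares of the 3 genes differed between the cell types, the bases upstream of the annotated starts are shown, from RefSeq on GRCm38.p6 and written 5′ to 3′ in the direction of transcription. Capitals mark matches to the letters GCATGCGC, known as the core of sites bound by nuclear respiratory factor 1 (NRF1), to CCGGAAG of ETS factors, which include the other nuclear respiratory factor, or to AAGATGGC of YY1, on either strand. All 3 c-subunit genes lie on the minus strand, at chr11:96075632-96075881, chr15:102671048-102671297 and chr2:73911327-73911576.
Atp5g1: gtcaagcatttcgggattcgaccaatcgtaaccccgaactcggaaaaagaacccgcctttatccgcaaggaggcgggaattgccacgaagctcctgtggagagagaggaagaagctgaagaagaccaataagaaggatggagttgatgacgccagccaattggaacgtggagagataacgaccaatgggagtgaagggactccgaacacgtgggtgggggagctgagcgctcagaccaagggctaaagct
Atp5g2: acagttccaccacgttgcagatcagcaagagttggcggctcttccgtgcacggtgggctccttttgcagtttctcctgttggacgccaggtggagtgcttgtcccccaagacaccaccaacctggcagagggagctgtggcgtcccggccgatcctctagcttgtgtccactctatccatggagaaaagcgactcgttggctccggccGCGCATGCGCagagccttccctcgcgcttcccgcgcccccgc
Atp5g3: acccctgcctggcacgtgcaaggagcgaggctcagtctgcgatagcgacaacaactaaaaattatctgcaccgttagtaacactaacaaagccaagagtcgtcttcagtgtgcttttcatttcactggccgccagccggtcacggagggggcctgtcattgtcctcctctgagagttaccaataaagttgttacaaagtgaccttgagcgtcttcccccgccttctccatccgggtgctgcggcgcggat

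Of the 3 windows only that of Atp5g2 held one of these strings, a run in which NRF1 matches on both strands overlap. The levels of the genes divided the cell types by share. Atp5g3 made up 45.1, 43.2, 52.2, 52.3 and 50.7% of the c-subunit transcripts in neurons, 63.8, 60.7, 63.3, 64.5 and 61.6% in astrocytes and 44.0, 41.5, 46.0, 45.5 and 44.5% in microglia. Astrocytes were above all other libraries, with a difference of 18.5 percentage points for astrocyte minus microglia and -14.1 points for neuron minus astrocyte (adjusted p = 0.0125 each, exact permutation test). Neurons and microglia did not pass (adjusted p = 0.141), but did without neuron 2 (adjusted p = 0.0357).

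Atp5g1 had the complementary pattern, at 41.3, 41.8, 32.5, 32.4 and 37.4% in neurons, 25.5, 28.1, 25.1, 25.3 and 27.5% in astrocytes and 38.00, 38.1, 31.97, 32.1 and 35.4% in microglia, with every astrocyte library lowest. Neurons were 10.8 points above astrocytes (adjusted p = 0.0125, exact permutation test), and neurons and microglia overlapped. Atp5g2 set all 3 cell types apart. Its share was 13.6, 15.1, 15.3, 15.4 and 11.9% in neurons, 10.7, 11.2, 11.7, 10.2 and 10.9% in astrocytes and 18.0, 20.4, 22.0, 22.4 and 20.2% in microglia, with no overlap between any pair of groups (adjusted p = 0.0125 for each pair, exact permutation test). In TPM, Atp5g2 was at 459 ± 50.9 in neurons, 349.9 ± 39.2 in astrocytes and 284 ± 25.7 in microglia, and Atp5g3 at 1586 ± 284 in neurons, 2005 ± 169 in astrocytes and 613 ± 43.4 in microglia. Processed pseudogenes of these genes may share their reads.

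**Figure D5:**
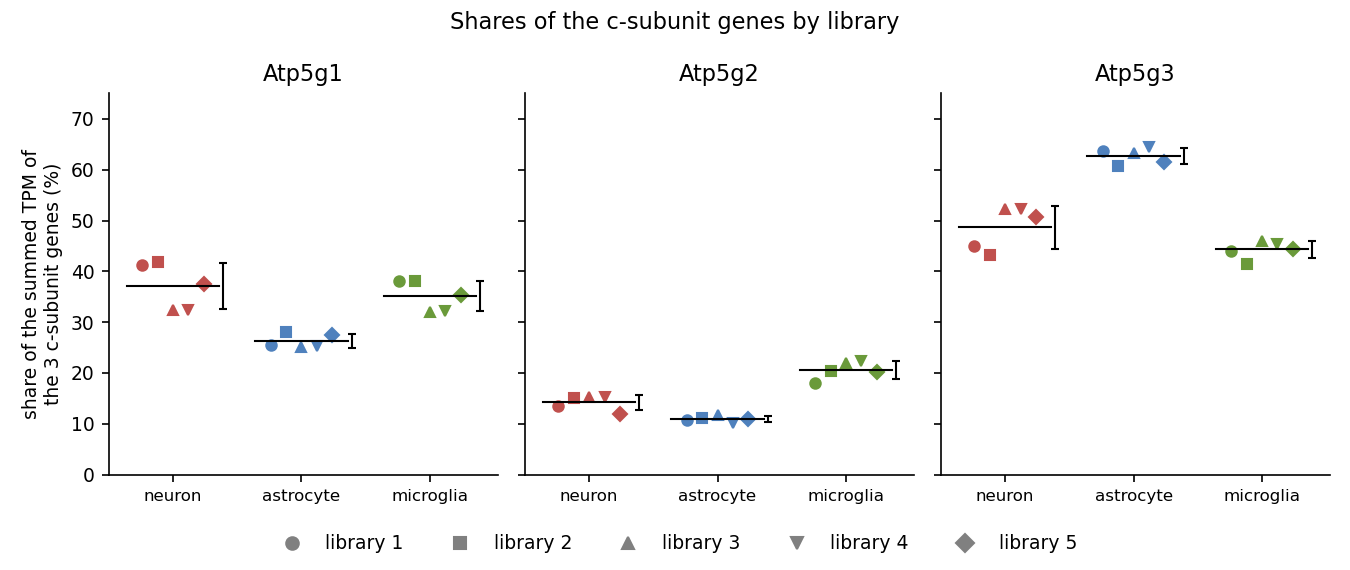
Percentage of the summed TPM of Atp5g1, Atp5g2 and Atp5g3 taken by each gene in every library of neurons, astrocytes and microglia (points), with the mean and SD of 5 libraries. Atp5g3 takes the largest share in astrocytes, and Atp5g2 is highest in microglia and lowest in astrocytes.

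Across the family, 76 member symbols had a promoter of 300 bases in the RefSeq table, 250 before and 50 after the start. At least 1 of the 3 strings was present in 35 of them (46.1%), against 26.9% of the promoters of all tested genes and 14.9% of all promoters in the table. NRF1 letters were in 12 members (15.8%, against 5.73% of tested genes), ETS letters in 19 (25.0%, against 19.0%) and YY1 letters in 11 (14.5%, against 4.98%). Ndufaf4, which was highest in astrocytes, and Cox6a1, whose level split by library number, serve as examples with matches. Ndufaf4 holds the overlapping NRF1 pair on the plus strand of chr4:24897833-24898082, and Cox6a1 holds the pair and an ETS match on the minus strand of chr5:115348959-115349208.
Ndufaf4: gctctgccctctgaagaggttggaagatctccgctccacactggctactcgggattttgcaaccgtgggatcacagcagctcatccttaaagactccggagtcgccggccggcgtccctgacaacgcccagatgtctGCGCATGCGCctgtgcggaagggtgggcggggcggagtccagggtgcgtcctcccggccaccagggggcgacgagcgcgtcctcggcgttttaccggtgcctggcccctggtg
Cox6a1: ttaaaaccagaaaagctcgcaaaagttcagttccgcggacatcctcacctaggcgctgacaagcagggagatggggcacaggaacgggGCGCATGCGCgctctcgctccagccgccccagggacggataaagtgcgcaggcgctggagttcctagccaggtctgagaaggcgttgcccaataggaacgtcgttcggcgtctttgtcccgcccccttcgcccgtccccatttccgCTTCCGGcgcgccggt

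These matches are descriptions of letters and were not related to the levels. Genes of neighbouring mitochondrial pathways, from lists that are not members, were set beside the family. Of 43 tested assembly factors with other symbols, 5 were called lower in neurons than in astrocytes (median log2 difference -0.33), near the 12.7% of all tested genes. Of 19 genes of the citric acid cycle 10 were called lower in neurons (median -1.04). Cs, citrate synthase, was at 37.3 ± 7.05 TPM in neurons and 143 ± 19.9 TPM in astrocytes (-1.92, adjusted p = 1.83e-09). Of 18 electron carrier and coenzyme Q genes 3 were called lower in neurons (median -0.59), Coq9 among them at 39.8 ± 8.35 TPM in neurons and 96.4 ± 12.7 TPM in astrocytes.

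Of 18 regulators of mitochondrial biogenesis, 3 were called lower in neurons than in astrocytes and 1 higher, against 12.7% and 12.9% of all tested genes. Ppargc1a, a coactivator of respiratory chain genes, was at 1.44 ± 0.393 TPM in neurons, 20.1 ± 4.97 TPM in astrocytes and 0.612 ± 0.0909 TPM in microglia (-3.10 for neuron minus astrocyte, adjusted p = 8.02e-11, and 3.68 for astrocyte minus microglia, adjusted p = 2.33e-12). Cytochrome c, encoded by Cycs, was at 200.1 ± 14.0 TPM in neurons, 345 ± 47.1 TPM in astrocytes and 82.9 ± 13.3 TPM in microglia. Cyc1, the cytochrome c1 subunit of complex III that the symbol rule does not take, was at 488 ± 15.1 TPM in astrocytes and 133 ± 9.86 TPM in microglia (1.87, adjusted p = 1.04e-10).

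Against microglia, astrocytes were called higher for 14 of 19 citric acid cycle genes, 12 of 18 carrier and coenzyme Q genes, 8 of 23 carriers and import genes and 15 of 17 glycolysis genes, against 32.3% of all tested genes. In astrocytes 1 glycolysis gene was called lower, against 10.2% of all tested genes. Neurons were called higher for 5 of 19, 5 of 18, 2 of 23 and 9 of 17 genes of these lists, against 29.5% of all tested genes. In neurons 3 glycolysis genes and 1 citric acid cycle gene were called lower than in microglia, against 9.74% of all tested genes. The differences between these lists and the respiratory chain members were not tested.

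The differences also varied with transcript length. The 70 members under 1000 nt had a median log2 difference of 0.20 between neurons and astrocytes and the 24 longer ones -0.35, while all tested genes of these lengths had medians of 0.07 and -0.05. Against microglia the median of the short members was 1.39 for neurons and 1.21 for astrocytes, and that of the longer ones 0.62 for neurons and 1.10 for astrocytes. With values corrected in each library for length and GC content, 23 members were called higher in neurons than in microglia (18.5% of all tested genes) and 27 in astrocytes (18.8%).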

How the data were processed

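Polyadenylated RNA was sequenced from neurons, astrocytes and microglia of mouse cortex, 5 libraries each, grouped by the labelled cell type. Per the labels' protocols, cDNA was amplified by PCR, polyA RNA was enriched and reads were paired. The tools listed in the submitters' processing notes are RSEM 1.2.28, STAR 2.7.1a, DESeq2 1.36.0 and Trim Galore 0.6.4, with the genome mm10 and no role for each. The authors deposited TPM per gene, each column summing to 1000000 within rounding. The labels give an average of 30000000 reads, but TPM keeps no read depth, so the depth of a single library is unknown and no counting interval can be given.

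Values were taken as log2(TPM + 1), pseudocount 1, and fold changes on this scale understate those of low genes. Genes had to reach 1 TPM in 5 libraries or more, and the 13351 that did were fitted in limma 3.58.1 (R 4.3.3) with a mean per cell type and a variance trend, and p-values were adjusted by Benjamini-Hochberg over all of them. A gene was called at an adjusted p below 0.05 and a log2 difference of at least 1. Shares of paralogues were compared by exact two-sided permutation tests (Python 3.11.15, scipy 1.17.1). The fit was tested on simulated data. Coordinates and transcript lengths are GENCODE vM21 on mm10, and promoters are RefSeq on GRCm38.p6.

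The members, marker lists, pathway lists and motifs were chosen with earlier results of these data known. Genes named are, within each complex, the 3 most abundant members, up to 3 called members without overlap per direction and comparison, by size of difference, all paralogue pairs, and complex II. Others were named after their values were seen, and results for some genes are left out. Neighbouring-pathway genes are up to 3 called per list and comparison. Same-numbered libraries deviated together from their group means in every number between neurons and microglia (correlations 0.216 to 0.382). Between neurons and astrocytes numbers 2 to 4 gave 0.189 to 0.233, and numbers 1 and 5 gave -0.014 and -0.033. Between astrocytes and microglia numbers 2 to 4 gave 0.183 to 0.249, and numbers 1 and 5 gave 0.075 and -0.011. The labels state no pairing. Alternatives were another pseudocount, 2 other filters, median-of-ratios and quantile scaling, 2-group fits, a replicate block, a correction for length and GC content, no minimum difference, and omission of libraries singly or by number. The combination of median-of-ratios scaling with the block was added after seeing the data.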

Additional observations from a re-analysis of the deposited data

Results flagged for a closer look

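Among 198 groups of 5 libraries examined (49 named members, 7 sums and 10 paralogue shares in 3 cell types), 3 held a library whose gap to its nearest neighbour was more than 0.71 of the group's range. Chance alone marks about 1 in 20 groups. Cox8b was at 1.16 TPM in microglia 5 and listed at 0 in the other microglia libraries. Its share of Cox8a plus Cox8b was therefore 0.0488% in microglia 5 and 0% in the others. The Cox4i2 share of Cox4i1 plus Cox4i2 was 0.548% in microglia 3 and at most 0.200% in the other microglia libraries. Microglia 3 also had the highest mural marker sum of its group, at 407 TPM. The part of these transcripts was not tested.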

How the results depend on the processing

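The 5 members called lower in neurons than in astrocytes were 4 to 7 under the alternatives with a minimum difference (4 where Cox7b2 was filtered out, 6 with length and GC correction, 7 without libraries 3 and 4), and 27 with no minimum difference. Of 13351 tested genes, 1690 were called lower as reported, 1665 without libraries 3 and 4, and 3803 with no minimum difference. The filter of 5 TPM gave 1397 of 9536, and length and GC correction 1554 of 13332. Members called higher in neurons than in astrocytes (0 by limma as reported, with 1 at an unadjusted p below 0.05) numbered 2 with median-of-ratios scaling, 3 with quantile normalization, 1 in the 2-group fit, 15 with no minimum difference, 2 without libraries 1 and 2, 8 without libraries 3 and 4, 1 without microglia 1 and 2, and 0 to 6 when single libraries were left out. Of 13351 tested genes, 1722 were called higher as reported, 1767 with median-of-ratios scaling and 1811 with quantile normalization. The 2-group fit gave 1748, no minimum difference 3493, and omission of single libraries 1639 to 1816. Without libraries 1 and 2 the count was 1765, without libraries 3 and 4 1761, and without microglia 1 and 2 1743. Against microglia, members called higher in neurons (62) numbered 11 with median-of-ratios scaling, 39 with quantile normalization, 23 with length and GC correction, and 59 to 65 with single libraries left out. All tested genes gave 3945, and in the same order 2655, 2447, 2469 (of 13332) and 3820 to 4076. In astrocytes (56) the members called higher numbered 13 with median-of-ratios scaling, 27 with length and GC correction, and 51 to 62 with single libraries left out. All tested genes there gave 4313, and in the same order 2619, 2505 (of 13332) and 4123 to 4529. Without libraries 1 and 2, 1 member was called lower in astrocytes than in microglia, against 1383 of 13351 tested genes. The causes were not tested.

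With the replicate block, members called higher in neurons than in astrocytes were 3 (Cox6a1, Cox6a2 and Cox6c, the last with an adjusted p of 5.24e-04 in limma, against 0.0520 without the block), and 6 with median-of-ratios scaling added. Of 13351 tested genes, 1743 and 1821 were called higher in these fits. On the adjusted p alone the block gave 32 members higher, against 15 without it. Among all tested genes 3923 were then higher, against 3493 without the block. Not every same-numbered pair of neuron and astrocyte libraries deviated together, so these numbers are not taken as pairs. With the block and length and GC correction, 27 members were higher in neurons than in microglia, 27 in astrocytes, and 1 lower in astrocytes. Of 13332 tested genes the counts were 2489, 2525 and 2115. With the block and median-of-ratios scaling, 15 members were higher in neurons than in microglia, 13 in astrocytes, and 1 lower in astrocytes. Of 13351 tested genes the counts were 2684, 2638 and 2295. The block alone ended no call of a named member. For paralogue shares a paired test, or leaving out libraries by number, cannot reach the threshold at this size. Of 71 calls of named members, 43 ended with median-of-ratios scaling (40 with the block), 26 with length and GC correction (22 with the block) and 13 with quantile normalization, and no result reversed. The depth of single libraries is unknown, so low values such as those of Cox8b are limited by an unmeasured counting error.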
